A study of Mus musculus with 6 samples.

Results

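The neutrophil granule genes described here are 10 genes whose products fill the granules or the cytosol of developing neutrophils, measured in the livers of E13.5 mouse embryos. They were chosen by gene symbol: every probe of the deposited array table whose symbol was Mpo, Elane, Prtn3, Ctsg, Ms4a3, Ltf, Camp, Ngp, S100a8 or S100a9, or a former symbol of one of them, was taken. Elane was listed under its former symbol Ela2, and the pancreatic Ela2a was listed apart. This gave 10 of 28884 genes named on the array, with 15 of its 45281 probes, 9 for the 5 early genes and 6 for the 5 late genes. The rule used symbols and no measured value.

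Each group had 3 arrays of whole fetal liver on a mixed background of C57/Bl6 and 129Sv. The double transgenic embryos carried R26-LSL-KITD816V, a KIT receptor transgene in the ROSA26 locus that Cre must switch on, together with Vav-iCre, which makes Cre in blood cells. The controls carried 1 of these transgenes: Vav-iCre in control replicate 1 and R26-LSL-KITD816V in control replicates 2 and 3. Every array thus came from an embryo with at least 1 of the transgenes, and the labels do not say whether an array held 1 liver or several. KIT binds stem cell factor, and its KITD816V form is known to signal in the absence of ligand.

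Neutrophils load their granules in order as they mature. Promyelocytes make the primary, or azurophil, granules with myeloperoxidase and the serine proteases, and later precursors make the secondary granules with lactoferrin and the cathelicidins. The transcription factors PU.1, RUNX1 and C/EBP alpha are known to act early in this programme and C/EBP epsilon late. In the fetal liver, granulocyte precursors are a minority among erythroid cells, and the 10 genes mark them in a whole-organ sample.

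All 10 genes were present in the liver at this age, and none differed between the groups beyond the spread among arrays. The 5 early genes had lower means in the double transgenic livers, with differences from -0.59 to -0.30 on the log2 scale. The 5 late genes had nearly equal means, with differences from -0.0011 to 0.15. Of the 15 probes 0 passed limma's test at an adjusted p below 0.05, where 8.1% of all 17855 probes kept for testing passed, and 0 had an unadjusted p below 0.05. The share of all kept probes at that unadjusted p was not counted. By direction, 2.32% of kept probes were called higher and 5.78% lower. At each of the 15 probes the groups overlapped, whereas they did not overlap at 27.5% of kept probes. Counted by genes, 0 of the 10 members passed, where 8.64% of 12262 measured genes passed (2.35% higher and 6.29% lower), and 0 of the 10 had groups that did not overlap, where 28.5% of genes did. A count of 0 among 10 genes is close to this background of calls.

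The promoters are shown because the factors of granule gene expression bind short motifs there. The 250 bases before the RefSeq gene start (build GRCm38.p6) were searched on both strands for GAGGAA, a core of PU.1 sites, TTGCNNAA, a core of C/EBP sites, and TGTGGT, a core of RUNX sites. Matches are in capitals, and a match on the opposite strand shows the reverse complement. No match shown overlaps another. The windows of Ms4a3, Camp, S100a8 and S100a9 were searched but are not printed, and those of Ms4a3 and Camp held no match.
Mpo, chr11:87793534-87793783, plus strand: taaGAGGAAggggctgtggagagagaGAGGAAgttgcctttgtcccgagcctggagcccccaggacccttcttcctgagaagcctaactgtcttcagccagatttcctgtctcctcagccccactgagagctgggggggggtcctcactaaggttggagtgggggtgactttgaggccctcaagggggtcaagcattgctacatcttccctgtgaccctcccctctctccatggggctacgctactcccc
Elane, chr10:79886062-79886311, plus strand: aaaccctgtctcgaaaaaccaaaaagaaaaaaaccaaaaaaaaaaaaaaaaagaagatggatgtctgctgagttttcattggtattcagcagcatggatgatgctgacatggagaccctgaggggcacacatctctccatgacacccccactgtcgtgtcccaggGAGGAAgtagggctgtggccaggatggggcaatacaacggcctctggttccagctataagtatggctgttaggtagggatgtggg
Prtn3, chr10:79879417-79879666, plus strand: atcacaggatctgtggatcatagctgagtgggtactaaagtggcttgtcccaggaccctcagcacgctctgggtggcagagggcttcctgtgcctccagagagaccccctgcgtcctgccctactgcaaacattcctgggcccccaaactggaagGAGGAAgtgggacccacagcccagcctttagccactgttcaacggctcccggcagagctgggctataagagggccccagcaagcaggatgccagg
Ctsg, chr14:56102575-56102824, minus strand: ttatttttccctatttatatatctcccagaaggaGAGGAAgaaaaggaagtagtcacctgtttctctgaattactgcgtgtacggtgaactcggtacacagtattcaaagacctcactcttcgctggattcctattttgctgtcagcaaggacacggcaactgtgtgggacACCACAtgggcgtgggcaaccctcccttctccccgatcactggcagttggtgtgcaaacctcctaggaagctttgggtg
Ltf, chr9:111019042-111019291, plus strand: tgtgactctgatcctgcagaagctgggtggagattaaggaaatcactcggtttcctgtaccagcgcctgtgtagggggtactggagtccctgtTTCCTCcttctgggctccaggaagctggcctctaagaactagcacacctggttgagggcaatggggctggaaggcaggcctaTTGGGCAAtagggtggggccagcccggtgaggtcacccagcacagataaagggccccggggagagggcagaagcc
Ngp, chr9:110419558-110419807, plus strand: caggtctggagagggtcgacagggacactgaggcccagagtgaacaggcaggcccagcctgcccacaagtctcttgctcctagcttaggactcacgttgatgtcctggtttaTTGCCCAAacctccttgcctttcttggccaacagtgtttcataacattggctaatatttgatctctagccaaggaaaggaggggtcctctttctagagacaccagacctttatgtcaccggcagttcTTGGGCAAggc

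GAGGAA was present in 4 of the 5 early promoters (Mpo, Elane, Prtn3 and Ctsg) and in 2 of the 5 late ones (Ltf and S100a8), against 23.2% of 32851 RefSeq windows of the same length. TTGCNNAA was present in 0 of the 5 early promoters and in 3 late ones (Ltf, Ngp and S100a9), against 9.56% of all windows. TGTGGT was present in 1 early promoter (Ctsg) and 1 late promoter (S100a9), against 14.0% of all windows. In Elane and Prtn3, genes that lie next to each other with 0 genes between them, the GAGGAA match began at positions -85 and -95 from the gene start. S100a8 and S100a9 are likewise neighbours with 0 genes between them. These matches describe letters and not binding, and windows without a match say nothing about a factor.

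Detection was clear for most probes. The detection p-value of the array software ranks a probe among negative control beads, and 73 of the 90 values of the 15 probes were 0. The other values of Mpo, Ngp and the brighter Ms4a3 probe were 0.00107, the smallest step above 0, in Mpo's dimmest probe on replicate 1 of both groups, in Ms4a3 on double transgenic replicate 2 and control replicate 1, and in Ngp on control replicate 1. The dimmer Ms4a3 probe had detection p-values of 0.0139, 0.00855 and 0.00107 in double transgenic replicates 1 to 3 and 0.00107 on each control array. The dimmer Ltf probe had 0.0267, 0.137 and 0.00214 in double transgenic replicates 1 to 3, against 0.0256, 0.0150 and 0.0160 in control replicates 1 to 3. It was the only member probe not detected on every array, since double transgenic replicate 2 missed the limit of 0.05. Of the neutrophil markers used to check cell identity, Elane, Mpo, Ltf, Ngp and Camp were detected on all arrays, Mmp8 on none, and Ly6g had no probe under that symbol.

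Mpo encodes myeloperoxidase, the heme enzyme of primary granules that makes hypochlorous acid. Its brightest probe stood at normalized log2 intensities of 11.92, 12.47 and 13.58 in double transgenic replicates 1 to 3, against 12.48, 13.45 and 13.79 in control replicates 1 to 3. Double transgenic replicates 1 and 2 lay below every control and replicate 3 among the controls, so the groups overlapped. The difference was -0.59 (SE 0.45, 95% interval -1.62 to 0.45, n = 3 per group, limma adjusted p = 0.501). The other 3 Mpo probes gave differences of -0.55, -0.73 and -0.70 (limma adjusted p = 0.504, 0.497 and 0.579), so all 4 probes pointed the same way by similar amounts. Mpo was also the only member lower in the double transgenic array of each replicate number, with differences of -0.56, -0.98 and -0.22. With the replicate number as a block its 4 probes stayed above the threshold (limma adjusted p = 0.0934, 0.166, 0.0836 and 0.0700, from the brightest to the dimmest).

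Elane, Prtn3 and Ctsg encode the related serine proteases neutrophil elastase, proteinase 3 and cathepsin G, which are stored active beside myeloperoxidase. Elane stood at 8.06, 8.20 and 9.88 in double transgenic replicates 1 to 3, against 8.47, 9.32 and 9.80 in the controls. The difference was -0.48 (SE 0.50, limma adjusted p = 0.629). The third double transgenic array lay above every control and the other 2 below every control. Prtn3 stood at 9.91, 9.48 and 11.37 in the double transgenic livers, against 10.10, 10.40 and 11.16 in the controls, with the same order of arrays around the controls and a difference of -0.30 (SE 0.47, limma adjusted p = 0.764). Ctsg stood at 10.24, 8.62 and 10.57, against 10.25, 9.81 and 10.35. For this gene replicate 2 alone lay well below the controls, and the difference was -0.33 (SE 0.45, limma adjusted p = 0.727).

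Ms4a3 encodes a membrane protein of granulocyte and monocyte progenitors that marks the primary granule stage but is not itself stored in granules. Its brighter probe stood at 8.01, 7.04 and 8.68 in double transgenic replicates 1 to 3, against 8.30, 8.31 and 8.54 in the controls. The controls lay close together, while the double transgenic arrays lay on both sides of them, with replicate 2 far below. The difference was -0.47 (SE 0.37, limma adjusted p = 0.498). The dimmer probe stood at 5.57, 5.82 and 6.41 against 6.14, 6.06 and 6.31, with a difference of -0.24 (SE 0.24, limma adjusted p = 0.620).

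**Figure D1:**
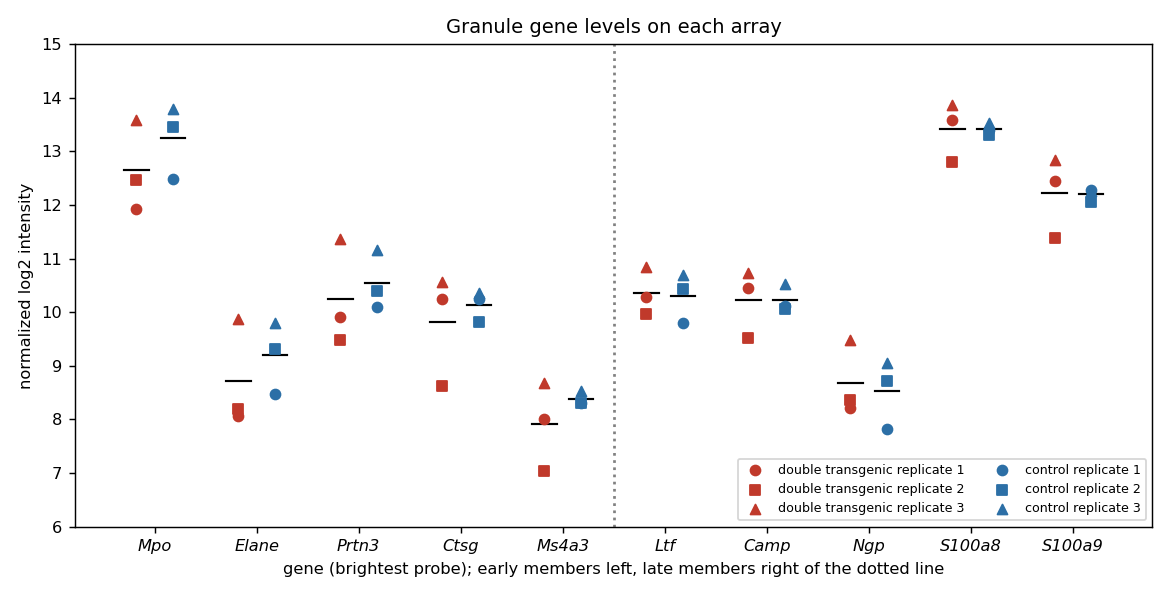
Normalized log2 intensity (vertical axis) of the brightest probe of each granule gene (horizontal axis) on the double transgenic arrays (red, left of each pair) and the control arrays (blue, right), with 1 symbol per replicate number and a line at each group mean (n = 3 per group). Double transgenic replicate 3 was the highest double transgenic array for all 10 genes, and the groups overlapped at every gene.

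The means of the late genes lay closer together. Ltf, which encodes the iron-binding lactoferrin of secondary granules, stood at 10.28, 9.97 and 10.83 in double transgenic replicates 1 to 3, against 9.80, 10.43 and 10.70 in control replicates 1 to 3. The difference was 0.05 (SE 0.30, limma adjusted p = 0.944), and the lowest array was the Vav-iCre control. The dimmer Ltf probe, near the background, stood at 5.38, 4.94 and 5.90 against 5.33, 5.41 and 5.47 and differed by 0.0020 (SE 0.25, limma adjusted p = 0.998).

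Camp and Ngp encode related proteins of secondary granules, the antimicrobial cathelicidin and neutrophilic granule protein. Camp stood at 10.44, 9.52 and 10.72 in the double transgenic livers, against 10.11, 10.06 and 10.53 in the controls, with a difference of -0.0011 (SE 0.31, limma adjusted p = 0.999). The double transgenic arrays lay on both sides of the controls. Ngp stood at 8.21, 8.37 and 9.47 in the double transgenic livers, against 7.83, 8.71 and 9.06 in the controls. It had the widest spread of the late genes among the controls, with the Vav-iCre control lowest, and a difference of 0.15 (SE 0.40, limma adjusted p = 0.868).

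S100a8 and S100a9 encode the subunits of calprotectin, a calcium- and metal-binding protein of the neutrophil cytosol that monocytes also make. S100a8 stood at 13.58, 12.79 and 13.86 in double transgenic replicates 1 to 3, against 13.40, 13.30 and 13.52 in the controls. S100a9 stood at 12.45, 11.38 and 12.83 in the double transgenic livers, against 12.28, 12.06 and 12.25 in the controls. In both genes the controls were close together and the double transgenic arrays lay on both sides of them. The differences were 0.0062 for S100a8 (SE 0.28, limma adjusted p = 0.992) and 0.02 for S100a9 (SE 0.34, limma adjusted p = 0.980).

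**Figure D2:**
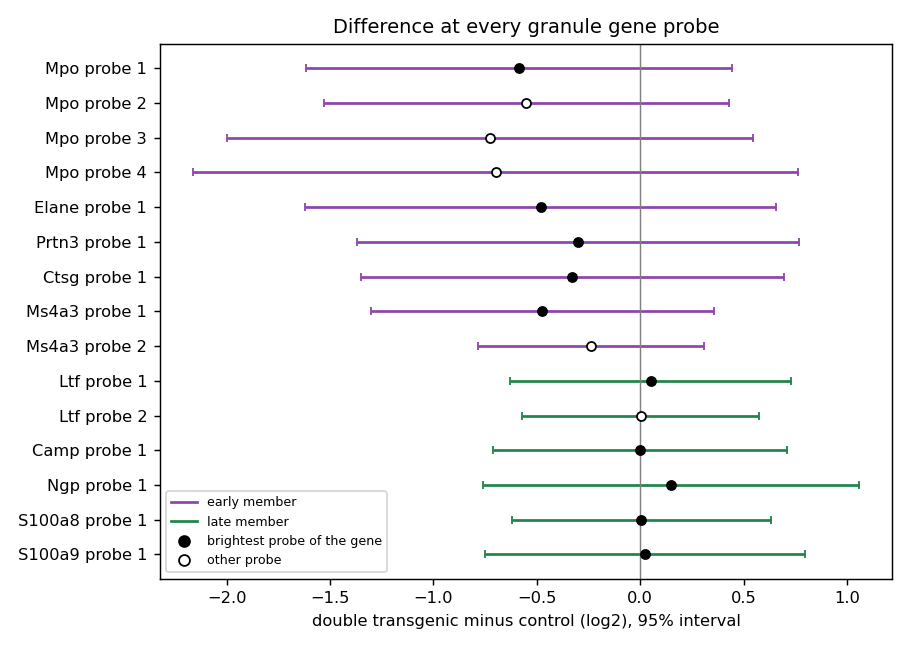
Difference between the double transgenic and control means (log2, horizontal axis) with its 95% interval from limma for each of the 15 probes (rows), early genes in purple and late genes in green, with the brightest probe of a gene filled. All 9 early probes lie left of 0, the late probes lie around it, from -0.0011 for Camp to 0.15 for Ngp, and every interval includes 0.

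A p above the threshold does not show that the levels were equal, and the intervals give the changes these arrays could have missed. Over the brightest probes of the early genes, the 95% intervals of the fold ran from 0.325 to 1.70. Over those of the late genes they ran from 0.591 to 2.08. A fall of an early gene to 0.325 of the control level, or a doubling of Ngp (upper bound 2.08), was thus within the intervals. In bulk liver, fewer cells of a type and less RNA per cell cannot be told apart, and levels are relative to all RNA of the liver.

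Relative to the controls, the early genes lay below the late genes on each double transgenic array, and by least on replicate 3. Averaged over the 5 early genes, the level relative to the control mean was -0.67, -1.14 and 0.51 in double transgenic replicates 1 to 3, against -0.38, -0.04 and 0.43 in control replicates 1 to 3. Averaged over the 5 late genes it was 0.06, -0.53 and 0.61, against -0.25, -0.02 and 0.28. The early mean minus the late mean, relative to the controls, was -0.73, -0.61 and -0.10 in the double transgenic livers, against -0.13, -0.02 and 0.15 in the controls. Double transgenic replicate 3 lay among the controls on this measure and the other 2 below them, with means of -0.48 ± 0.34 and 0 (SD of the controls 0.14, n = 3 per group). Between arrays of the same replicate number, double transgenic minus control, it was -0.60, -0.59 and -0.25, below 0 in each of the 3 pairs. No p-value is given for it, because the genes were grouped with results of these arrays known. Leaving out each gene in turn, chosen after seeing the data, gave -0.51 to -0.44. The groups overlapped with all genes in and did not overlap in 5 of 10 omissions. These omissions share the same arrays and most of their genes, so they are not independent and test nothing.

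**Figure D3:**
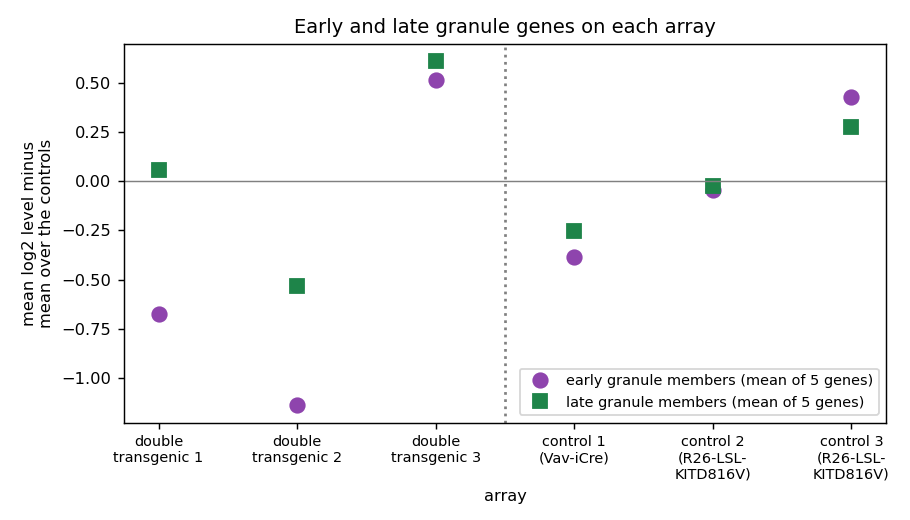
Mean normalized log2 level of the 5 early genes (purple circles) and of the 5 late genes (green squares) minus their mean over the controls (vertical axis), for each array (horizontal axis). The early mean lies below the late mean on all 3 double transgenic arrays, by 0.10 in replicate 3 (-0.10 as early minus late), and above it on control replicate 3.

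The size of these differences rested on single arrays. The median difference of the early genes was -0.47, against 0.07 over all 12262 genes measured, and it was -0.04 with double transgenic replicate 2 left out and -0.86 with double transgenic replicate 3 left out. It was -0.22 without double transgenic replicate 1 and likewise -0.22 without control replicate 3. The median of the late genes was 0.02, with 0.32 when double transgenic replicate 2 was left out and -0.24 when replicate 3 was. Double transgenic replicate 3 was the highest of the 6 arrays for 9 of the 10 genes, and Mpo was the exception. Double transgenic replicate 2 was the lowest of its group for 7 of the 10, with Mpo, Elane and Ngp lowest in replicate 1. Among the controls, replicate 3 was highest for 9 genes, and S100a9 was highest in replicate 1.

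The granule genes varied more among the double transgenic arrays than most genes did. The SD of the early genes over the 3 double transgenic arrays was 0.82 to 1.04, and that of the late genes 0.44 to 0.75, against a median of 0.27 over all measured genes. Ctsg, with the largest SD, was matched or exceeded there by 0.587% of genes, and Ltf, with the smallest, by 20.8%. Over the controls the SDs ran from 0.13 to 0.68 for the early genes and from 0.11 to 0.63 for the late genes, against a median of 0.23. Of the 10 genes 9 had the larger SD in the double transgenic group, and Ltf was the exception. The median SD over all measured genes was also larger in that group, and the share of all genes with this order was not counted. Ms4a3, S100a8 and S100a9 were close together among the controls. Ctsg and Camp had control SDs of 0.29 and 0.26, somewhat above that median, whereas Mpo, Elane, Prtn3, Ltf and Ngp varied more in both groups.

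Among genes outside the list, the 5 with the highest Pearson correlation to the mean of the early genes over the 6 arrays were Apobr (0.99), Lcp1 (0.98), Dennd3 (0.98), Parvg (0.97) and Casz1 (0.97). Lcp1 encodes L-plastin, an actin-bundling protein of leukocytes, and Parvg a parvin of blood cells. They were picked as the highest of 12252 genes over 6 points, and 73 genes exceeded 0.9. The points share arrays and normalization, so these values only describe likeness.

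The other granule and late neutrophil genes did not pass either. Of 32 listed genes 20 were measured and 0 passed (limma, with 3 at an unadjusted p below 0.05), with a median difference of 0.13. The share of all measured genes at that unadjusted p was not counted. The unadjusted counts here and in the lists below therefore have no background beside them and are not read as results. A further 10 were detected on no array, among them Mmp8, Itgam and Padi4. Chil1, a chitinase-like protein of secondary granules, had the largest difference at 0.92 (SE 0.27, limma adjusted p = 0.0739, adjusted p = 0.0403 with the replicate block, 0.0450 with array weights and 0.0174 without double transgenic replicate 2). Lyz2, a lysozyme of neutrophils and macrophages, stood at -0.77 (SE 0.35, limma adjusted p = 0.243).

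Genes that process and store granule proteases had a median difference of -0.10, and 0 of 11 measured passed (limma, 3 at an unadjusted p below 0.05). The largest difference was that of Cd63, a membrane protein of azurophil granules and lysosomes, at -0.71 (SE 0.31, limma adjusted p = 0.221, 0.0313 without double transgenic replicate 1 and 0.0247 with array weights). Of the phagocyte NADPH oxidase genes 0 of 5 measured passed (limma, 3 at an unadjusted p below 0.05), with a median of -0.54. Cyba, which encodes the p22phox subunit, stood at -0.70 (SE 0.28, limma adjusted p = 0.185, and 0.0180 with array weights), and Rac2, the GTPase of the complex in blood cells, at 0.67 (SE 0.27, limma adjusted p = 0.185, 0.0353 with the replicate block and 0.0341 with array weights).

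Among 17 listed transcription factors of blood cell formation 1 passed (limma, 6 at an unadjusted p below 0.05), and the median difference of the list was 0.17. The list is broader than granule formation, so its counts and median do not describe that programme alone. It also holds Lmo2 (0.41), Gfi1b (0.83), Egr1 (0.38) and Klf4 (-0.15). Of the 17 differences 10 were above 0 and 7 below. At 7 of the 17, among them Lmo2, Gfi1b and Egr1, the groups did not overlap, where this held for 28.5% of measured genes. Cebpa, which encodes C/EBP alpha, needed to form granulocytes and also made by hepatocytes, stood at 4.93, 4.94 and 4.87 in double transgenic replicates 1 to 3, against 6.59, 6.11 and 6.14 in the controls. It was detected on all 3 control arrays and on 0 double transgenic arrays, so its level there is only a bound. With that level set at a detection floor, Cebpa was 2.13-fold lower in the double transgenic livers. This is a point estimate and not a lower limit of the fall. The measured levels gave 0.388 of the control level, with a 95% interval from limma of 0.285 to 0.529. The limma adjusted p was 0.00346, and between 0.000495 and 0.0296 under the alternatives tried. The size depended on the background correction: the measured difference was -1.37 on the log2 scale, against -0.80 with a normexp offset of 50 and -0.46 both with no background corrected and in the authors' value table. The hepatoblast genes fell as well (6 of 6 measured), and the part of liver cells in the fall of Cebpa was not tested. Cebpe and Gfi1, regulators of the late granule stage that are named after their values were seen, differed by 0.17 (limma adjusted p = 0.863) and 0.46 (limma adjusted p = 0.615).

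Of the receptors of granulocyte precursors 0 of 11 measured passed (limma, 1 at an unadjusted p below 0.05), with a median of -0.06. Kit itself stood at 9.98 ± 0.31 in double transgenic livers and 9.21 ± 0.29 in controls (SD, n = 3 each), a difference of 0.77 (SE 0.23, limma adjusted p = 0.0867, and 0.0379 with array weights). Whether its probe reads the transgene is not known, so it checks nothing about the labels. Il3ra, a chain of the interleukin-3 receptor, stood at -0.35 (SE 0.29, limma adjusted p = 0.537).

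**Figure D4:**
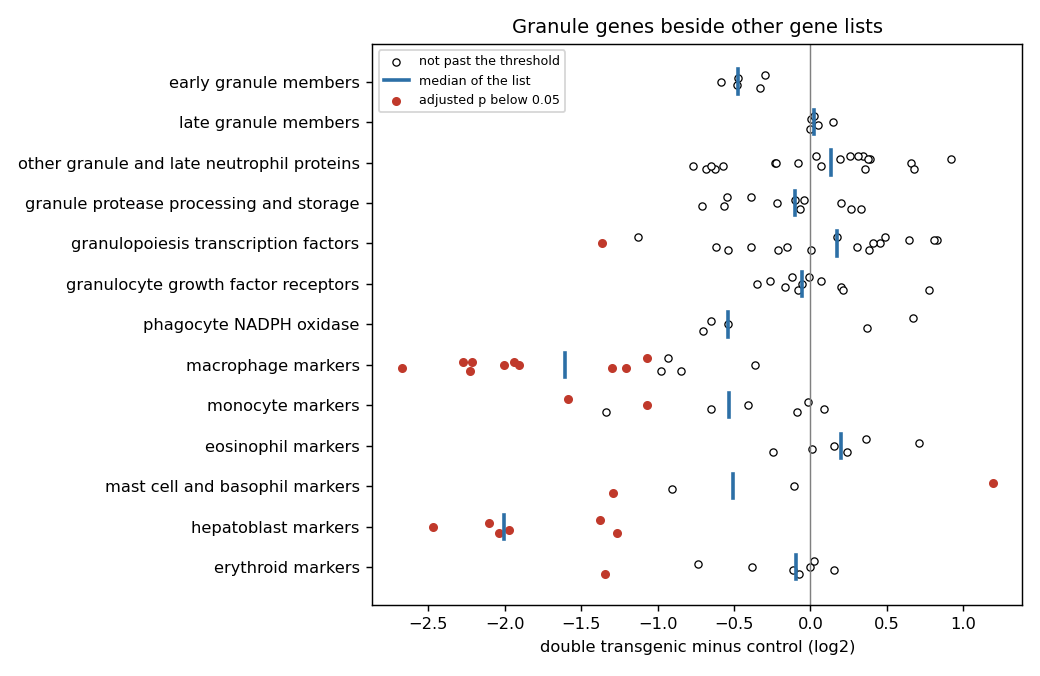
Difference between the double transgenic and control means (log2, horizontal axis) for each measured gene of 13 lists (rows), filled red where limma's adjusted p was below 0.05, with a blue line at the median of the list. The early granule genes sit between -0.59 and -0.30 and the late ones around 0, to the right of the macrophage list (median -1.60) and the hepatoblast list (median -2.01).

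The part of other liver cells in the granule gene values was not tested, and the levels of their markers are given here beside them. Macrophage markers had lower means in 14 of 14 measured genes, and 10 were called lower, with a median of -1.60. Their summed linear levels were 1738 to 2782 in the double transgenic arrays, against 7832 to 8103 in the controls. Spic, needed to form the splenic macrophages that recycle iron, differed by -2.67, Adgre1, an adhesion receptor of macrophages, by -2.23, Timd4, a receptor for dying cells, by -2.01, and C1qc, a chain of complement C1q, by -1.94 (limma adjusted p = 0.000907, 0.00137, 0.00136 and 0.00198). Cd163 and Maf were detected on no array. The 10 granule genes, by contrast, differed by -0.59 to 0.15 with no call; the difference from the macrophage list itself was not tested.

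Of 8 measured monocyte markers 7 had lower means and 2 were called lower, with a median of -0.53. Fn1 fell by 1.59 (limma adjusted p = 0.00864), and the part of liver cells in its fall was not tested. Mpeg1, which is also in the macrophage list, fell by 1.07 (limma adjusted p = 0.0482). When single arrays were left out, its limma adjusted p was 0.0439 to 0.169, with the call kept only without double transgenic replicate 3. The 6 monocyte markers not called ran from -1.34 for Ccl9 to 0.09 for Cd14. The Mpeg1 call was also lost with no background corrected (adjusted p = 0.0600), in the authors' value table (0.0601), with no filter on dim probes (0.125) and over probes detected on all 6 arrays (0.0536). The summed level of the monocyte markers was 2697, 1590 and 4667 in double transgenic replicates 1 to 3, against 4779, 4309 and 4209 in control replicates 1 to 3. It too was lowest in double transgenic replicate 2, and in replicate 3 it was above 2 of the controls. The sum in replicate 3 came mostly from Lgals3, at a log2 level of 11.32 there, against 10.44, 10.27 and 10.24 in the controls. With each marker weighted alike, the mean log2 level relative to the control mean was -0.58, -1.30 and -0.02 in double transgenic replicates 1 to 3. In control replicates 1 to 3 it was 0.11, -0.01 and -0.11. Of 6 measured eosinophil markers 0 passed (limma, 0 at an unadjusted p below 0.05), with a median of 0.20, Epx at 0.71 (adjusted p = 0.548, and 0.0444 with the replicate block) and Prg2 at 0.36 (limma adjusted p = 0.759). Their summed level was 4832 to 11413 in the double transgenic arrays, against 2179 in the Vav-iCre control and 9107 and 12016 in the other controls. The Vav-iCre control was also the lowest control for Mpo, Elane, Prtn3, Ms4a3, Ltf and Ngp.

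Of 4 measured mast cell and basophil markers, Prss34 was called higher (limma adjusted p = 0.0356) and Cpa3 lower (limma adjusted p = 0.0361). Prss34 is a basophil protease with 0 control arrays above the detection limit. With its control level set at a detection floor it rose 1.84-fold, a point estimate and not a lower limit of the rise. The 95% interval from limma for its measured fold was 1.46 to 3.57. Cpa3, a mast cell protease, fell by 1.29. The Prss34 call was lost when any array other than double transgenic replicate 1 was left out (adjusted p up to 0.130). Its measured difference of 1.19 was 0.69 at an offset of 50 (adjusted p = 0.0722) and 0.41 with no background corrected or in the authors' value table (adjusted p = 0.0951 and 0.0952). The Cpa3 call was lost when control replicate 1 or 3 or double transgenic replicate 2 or 3 was left out (adjusted p up to 0.121), and its difference was -0.59 with no background corrected or in the authors' value table (adjusted p = 0.0642 and 0.0643). Without the filter on dim probes both calls were lost (adjusted p = 0.106 for Prss34 and 0.117 for Cpa3). The summed level of the 4 measured markers was 812 to 1671 in the double transgenic arrays, against 1447 to 2034 in the controls. Most of it came from Fcer1g and Hdc, which differed by -0.91 and -0.11 and were not called (limma adjusted p = 0.179 and 0.872). The sum thus says little about Prss34 and Cpa3. Fcer1a, Tpsb2 and Cma1 were detected on no array. Hepatoblast markers fell in 6 of 6 measured genes, with summed levels of 21584 to 31637, against 72828 to 99204. The differences were -2.47 for Apoa1, -2.10 for Hnf4a, -2.04 for Ttr and -1.97 for Ahsg (limma adjusted p = 0.00298, 0.00262, 0.00468 and 0.00136), and the Alb probes were detected on no array. Of 8 erythroid markers, with a median of -0.09, only Alas2, the erythroid enzyme that starts heme synthesis, passed. It fell by 1.35 (limma adjusted p = 0.0189), and the call was lost without control replicate 2 or 3 or double transgenic replicate 2 (adjusted p up to 0.0739) and without the filter on dim probes (adjusted p = 0.0664).

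Over the series, 17249 to 17873 of 45281 probes were detected per array. Of the 17855 kept probes 1446 passed, 414 higher and 1032 lower in the double transgenic livers. The count was 745 without control replicate 2, 792 without control replicate 3, 812 when double transgenic replicate 2 was left out and 933 when double transgenic replicate 3 was, and 2379 with the replicate number as a block. In each of these settings 0 of the 10 granule genes passed.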

How the data were processed

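Total RNA of 6 fetal liver samples was hybridized to Illumina bead arrays. The deposited table holds a signal intensity per probe and array, not normalized between arrays, and a detection p-value, per the file headers. Per the submitters' processing notes, GenomeStudio was used (no version given). A second table, of values deposited by the authors, holds intensity within 0.303% of a quantile normalization of that signal, on the linear scale, with a median of 141 per array. Whether a background was subtracted upstream is unknown.

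In R 4.3.3 with limma 3.58.1, neqc (negative controls inferred from detection p-values, offset 16) was followed by quantile normalization and log2. Probes with a detection p below 0.05 on at least 3 of 6 arrays were kept (17855). Groups were compared by limma's moderated test (lmFit, eBayes; two-sided), and p-values were adjusted by Benjamini-Hochberg over every kept probe. Symbols were updated through a RefSeq table (GRCm38.p6), and a gene was represented by its brightest kept probe (12262 genes). Promoter windows are RefSeq's, and all 10 genes had 1.

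The members and lists were chosen with earlier results of these data known. Named genes were the members, up to 4 called genes of each list by smallest adjusted p, or, with none called, the 2 largest differences, and the 5 genes most like the early mean. Deviations from the group means correlated between same-numbered arrays at 0.532, 0.277 and 0.199, each above 0.1, so the replicate number from the titles was used as a block in an alternative. By genotype, the Vav-iCre control came from a different embryo than the other controls. Nothing in the labels says that arrays of the same genotype came from separate embryos. The spread behind each p-value is that of these 6 samples. Among the controls it includes a difference of embryo and genotype, and the rest of the spread may be technical. The arrays lie on 1 chip with the groups in separate positions, so position and group cannot be told apart. In simulated data for this comparison over 17855 probes, 17% of probes changed by 1 on the log2 scale and 75% of those changed by 2 were recovered, and 0 of 17655 unchanged probes were called. Each size had 100 changed probes, and the noise was drawn independently for each probe. Deviations that probes of an array share were thus absent, so these rates may not hold for the real arrays. They are rates over all kept probes and not for the granule genes, which varied more than most genes. The number of arrays limits the precision. Some genes that the rule names are not reported here.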

Additional observations from a re-analysis of the deposited data

How the results depend on the processing

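The 15 probes gave 219 results under 15 alternative settings, and 0 of these passed (lowest adjusted p = 0.0700, Mpo's dimmest probe with the replicate block). The count over all kept probes was 2379 with the replicate number as a block (910 higher), 3728 with array weights (1745 higher) and 745 to 1840 when single arrays were left out. Among the named genes and lists, the block changed only the calls of Chil1, Rac2 and Epx. The early median ranged from -0.86 to -0.04 when single arrays were left out and from -0.64 to -0.30 otherwise, the late median from -0.24 to 0.32 and from -0.11 to 0.15. The early mean minus the late mean ranged from -0.67 to -0.35. Leaving out single genes was chosen after seeing the data.

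Differences near 0 changed sign. Camp stood at 0.0012 with a normexp offset of 50, 0.0058 in the authors' value table, 0.0059 with no background corrected and 0.14 with median scaling. The dimmer Ltf probe stood at -0.0021 in the authors' value table and -0.0020 with no background corrected. With array weights the Ltf probes stood at -0.16 and -0.091, Ngp at -0.031, S100a8 at -0.11, S100a9 at -0.11 and Prg2 at -0.070. Leaving out single arrays gave -0.21 to 0.25 for Ltf (-0.25 to 0.24 for its dimmer probe), -0.25 to 0.36 for Camp, -0.24 to 0.41 for Ngp, -0.22 to 0.32 for S100a8, -0.28 to 0.44 for S100a9, -0.86 to 0.086 for Prtn3, -0.71 to 0.26 for Ctsg and -0.35 to 0.82 for Prg2. Mpo, Elane and Ms4a3 stayed below 0 in each of these settings. The cause of these shifts was not tested.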
